A study of Homo sapiens with 6 samples.

Results

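The proteasome genes measured here were those whose official symbol begins with PSMA, PSMB, PSMC, PSMD, PSME, PSMF or PSMG followed by a number, among the protein-coding rows of the count table. Of 58233 gene identifiers, 50 rows met this rule. Of these, 48 encode subunits, regulators or assembly factors of the proteasome, and 2, PSMC3IP and PSME3IP1, carry such a symbol but encode no proteasome subunit and are described apart. Messenger RNA was taken from OCI-AML2 cells, an established line from a human acute myeloid leukemia, in 3 libraries labelled IKZF1-ko, made by CRISPR knockout of IKZF1, and 3 libraries labelled NT control, which carry a non-targeting control. Ikaros, the product of IKZF1, is a transcription factor of blood cells that binds DNA through zinc fingers. The comparison asks which genes differ with its loss, in a study of palbociclib and venetoclax. The labels name no drug treatment for these libraries, and the growth medium was the same for both groups. The design text speaks of separate lines in each group and the extraction protocol of parental and knockout cells in triplicate, so p-values measure the spread between libraries, which may be technical.

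The proteasome is the barrel-shaped protease that degrades proteins tagged with ubiquitin. Its core particle stacks rings of alpha subunits (PSMA genes), which form the gate, and rings of beta subunits (PSMB genes), of which PSMB5, PSMB6 and PSMB7 carry the active sites. The regulatory particle caps the core, with ATPases (PSMC genes) that unfold substrates and non-ATPase subunits (most PSMD genes) that bind and remove ubiquitin. In immune and blood cells, and after interferon, PSMB8, PSMB9 and PSMB10 can replace the standard active subunits to form the immunoproteasome, which favours peptides for antigen presentation, and the PSME1 and PSME2 proteins form an alternative cap. Proteasome genes are known to be transcribed together, in part through the factor encoded by NFE2L1.

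The 6 libraries held 11300519 to 18214328 counted reads, and 13028 genes had enough reads to be tested. In the libraries labelled IKZF1-ko, IKZF1 mRNA was present at 420.4, 426 and 436 CPM (reads scaled by each library's total, so that libraries can be compared) in replicates 1, 2 and 3, against 331, 291 and 334 CPM in NT control (log2 fold change 0.43, adjusted p = 1.23e-05 with edgeR and a term for the library sets described next). The targeted mRNA was thus not lower in any library labelled IKZF1-ko. Counts per gene show neither an edited sequence nor the protein, so each direction given here is that of the label, not of a verified loss of Ikaros. Of 11 markers of a myeloid leukemia line, 8 were at 1 CPM or more in every library, among them PTPRC, CD33 and SPI1, while CD34 had no counts, and their summed level was 1614 to 1820.5 CPM in IKZF1-ko and 1579 to 1789.9 CPM in NT control. Of 15 markers of lymphoid, erythroid, platelet, epithelial and stromal cells, 12 stayed under 1 CPM in every library and 8 had no counts. The summed level of these 15 was 98 to 121 CPM in IKZF1-ko and 109 to 130.0 CPM in NT control, nearly all from NCAM1 and PECAM1. In bulk RNA, fewer cells of a type and less RNA per cell cannot be told apart.

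The main split between libraries did not follow the groups. IKZF1-ko replicate 1 and NT control replicate 2 stood apart from the other 4 libraries on the first principal component of log2 CPM, which held 67.6% of the variance, and no label names anything these libraries share. Their IKZF1 levels, 420.4 and 291 CPM, lay on the side of their own labelled groups. Whether their labels are right was not tested further, and if these were exchanged, the difference within this pair would have the opposite sign. Each proteasome gene was therefore followed in every library, and the groups were tested both on group alone and with a term for the library set. That term was taken from the same counts, so its p-values treat the sets as known.

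In a fit that allowed for the library sets, 19 of 31 tested genes of the standard proteasome (alpha ring, standard beta ring and regulatory particle) were lower in the libraries labelled IKZF1-ko, by small amounts. Of 46 proteasome genes that passed the filter, 21 fell and 0 rose with edgeR's quasi-likelihood test, where 6.62% of all tested genes fell and 6.93% rose. The 21 genes were between 1.12-fold and 1.30-fold lower. The median log2 fold change of the 46 genes was -0.16, against 0.00 for all tested genes. On group alone 0 of the 46 passed, as did 0.00% of all tested genes, and 0 of the 46 fell at an unadjusted p under 0.05, where 1.21% of all genes did. On group alone the median log2 fold change was also -0.16. Over all tested genes, edgeR's common estimate of variation beyond counting error was 22.2% on group alone and 4.83% with the term. The term was taken from the same counts, which by itself lowers this estimate. With 1 library left out, the group-alone median was between -0.05 (without IKZF1-ko replicate 1) and -0.28 (without NT control replicate 2). With the term it was between -0.18 and -0.17, but part of this narrow range is built in. Without IKZF1-ko replicate 1 or NT control replicate 2, the other is alone in its set and adds nothing to the group difference. Such a fit compares the groups within the larger set only. With 1 surrogate variable in place of the term the changes were smaller, with a median of -0.12, and 8 of the 46 fell, where 3.52% of all genes did, and 0 rose, where 4.39% did. With DESeq2 and the library-set term 17 fell, where 4.81% of all genes did, and 0 rose, where 4.09% did. PSMA3, PSMC2, PSMD13 and PSME4 did not pass with DESeq2. Without IKZF1-ko replicate 3 the edgeR count with the term was 12.

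The summed level of the 46 genes was 3293, 4473 and 4422 CPM in IKZF1-ko replicates 1, 2 and 3, against 5039, 3774 and 5005 CPM in NT control replicates 1, 2 and 3. The lowest library was IKZF1-ko replicate 1 and the next was NT control replicate 2, and because of that NT control library the groups overlapped. Within each set of libraries, the sum was lower in IKZF1-ko.

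**Figure D1:**
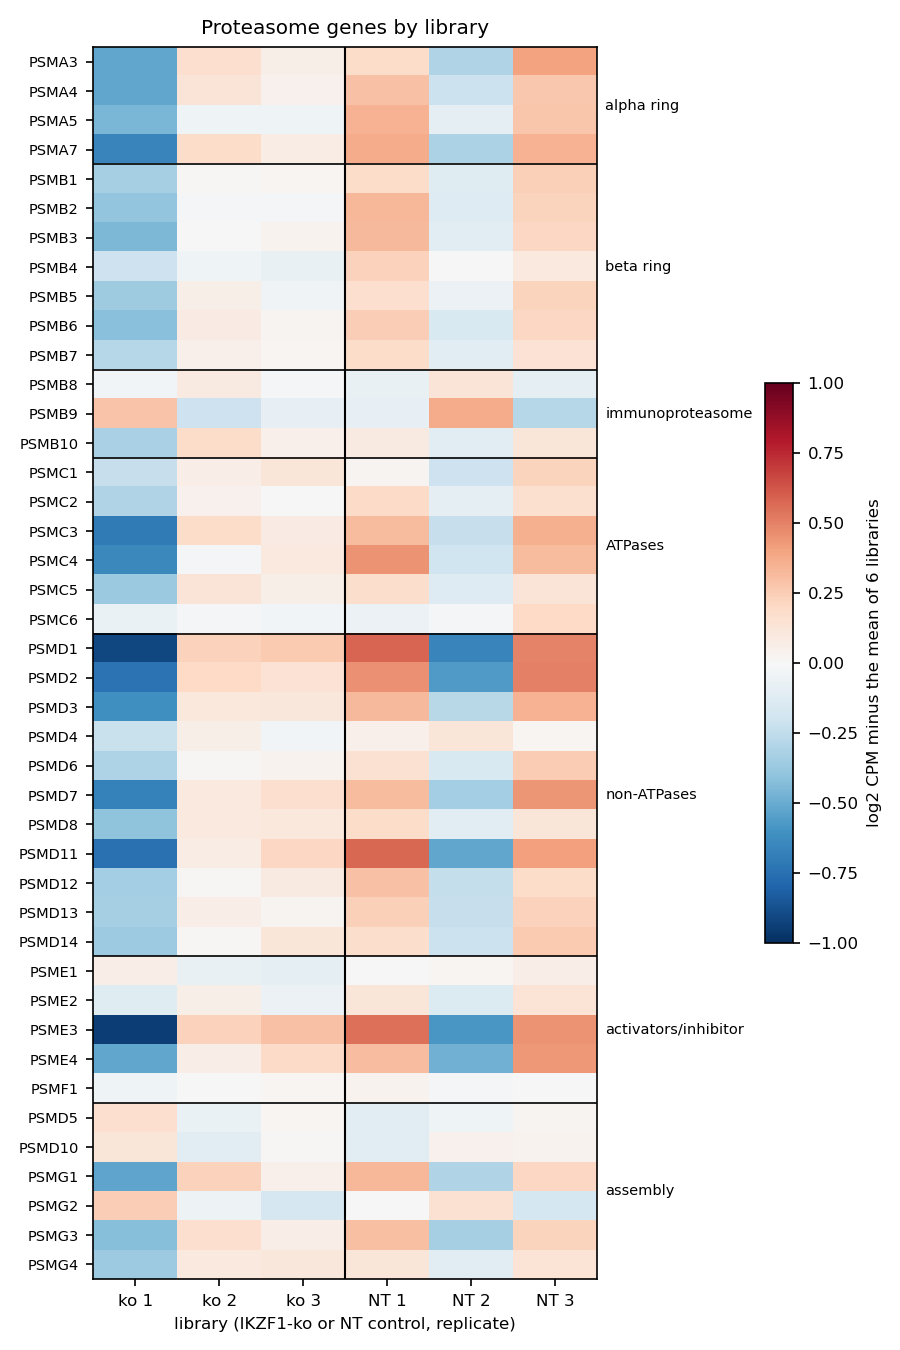
Heat map of 42 proteasome genes (rows, by class) in the 6 libraries (columns), coloured by log2 CPM minus the gene's mean over the 6 libraries; the 4 tested genes with few counts are left out. The columns of IKZF1-ko replicate 1 and NT control replicate 2 are blue for most genes of the alpha ring, beta ring and regulatory particle, and NT control replicates 1 and 3 are mostly redder than IKZF1-ko replicates 2 and 3. PSMB9, PSMD10 and PSMG2 are instead highest in the libraries that are low for most genes.

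Among the alpha subunits, 4 of 7 tested genes fell and 0 rose. PSMA5 (ENSG00000143106, GRCh38 chromosome 1, 109399031 to 109426427), whose product sits in the gate-forming ring, was at 73.9, 98 and 98.5 CPM in IKZF1-ko and at 129, 95 and 123 CPM in NT control. Its fold change had the lowest adjusted p of all proteasome genes (log2 fold change -0.36, SE 0.0496, adjusted p = 1.30e-04). It was also lower with a surrogate variable (-0.31, adjusted p = 8.32e-04). PSMA7 was at 79.1, 142 and 132 CPM in IKZF1-ko, against 162, 100.4 and 159.7 CPM in NT control (log2 fold change -0.27, SE 0.0515, adjusted p = 0.0022). PSMA4 was at 103, 161 and 152 CPM in IKZF1-ko, against 181, 127 and 178 CPM in NT control (-0.24, SE 0.0496, adjusted p = 0.0041). In all 3 genes the second NT control replicate was lower than IKZF1-ko replicates 2 and 3, and the groups overlapped. PSMA3 also fell (-0.20, adjusted p = 0.042). With a surrogate variable PSMA7 (-0.18, adjusted p = 0.057), PSMA4 (-0.17, adjusted p = 0.054) and PSMA3 (-0.12, adjusted p = 0.25) did not pass.

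The other alpha genes could not be judged in the same way. PSMA6 had only 13 to 28 reads per library, PSMA2 42 to 73 and PSMA1 209 to 300, whereas the 4 alpha genes that fell had 876 or more in every library. These 3 genes, and the assembly gene PSMD9 with 9 to 37 reads, share exon positions on the same strand with another annotated gene, which is CFAP251 among others for PSMD9 and has no symbol for the other 3. The shared part is 14.1% of annotated exon bases for PSMA6, 14.6% for PSMA2, 19.9% for PSMD9 and 24.7% for PSMA1. All annotated exons together span 6506 bases for PSMA6, 5336 for PSMA2, 8774 for PSMD9 and 3301 for PSMA1. Their median coding transcripts are much shorter, at 879, 1085, 1420.5 and 1266 bases. The shared part of a coding transcript can therefore be much larger than these percentages, and it was not measured. Where reads that fit more than 1 gene were not counted, such genes would be under-counted. The counting method is not given in the sources used here, and its part in these low counts was not tested. PSMA8, the alpha subunit of germ cells, had 0 counts in every library, which allows up to 0.165 CPM in the deepest library and 0.265 CPM in the shallowest (3 counts, covering counting error only).

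Of the 7 standard beta subunits, 6 fell and 0 rose, the highest share of any class. PSMB2 was at 117, 151 and 152 CPM in IKZF1-ko, against 193, 140.5 and 179 CPM in NT control (log2 fold change -0.28, SE 0.0489, adjusted p = 9.15e-04). PSMB3, a structural subunit of the ring, was at 81.3, 111 and 114 CPM in IKZF1-ko, against 139, 103 and 128 CPM in NT control (-0.28, SE 0.0524, adjusted p = 0.0018). PSMB4 (ENSG00000159377, chromosome 1, 151399534 to 151401944) was at 177, 198 and 194 CPM in IKZF1-ko, against 240.0, 204 and 218 CPM in NT control (-0.22, SE 0.0491, adjusted p = 0.0067). PSMB4 was the only proteasome gene with every IKZF1-ko library below every NT control library, 1 of 46, where 4.05% of all tested genes had this. The opposite order held for 0 of 46, where it did for 5.30% of all tested genes. PSMB1 was at 115, 146 and 147 CPM in IKZF1-ko, against 164, 133 and 170.5 CPM in NT control (-0.20, SE 0.0471, adjusted p = 0.0096). PSMB2, PSMB3, PSMB4 and PSMB5 passed also with a surrogate variable, at log2 fold changes of -0.24, -0.23, -0.20 and -0.19, while PSMB1 (-0.16, adjusted p = 0.053) and PSMB6 (-0.15, adjusted p = 0.13) did not.

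Of the active-site subunits, PSMB5 and PSMB6 fell and PSMB7 did not pass. PSMB5, which carries the chymotrypsin-like site that bortezomib blocks, was at 68.7, 91.6 and 86 CPM in IKZF1-ko, against 99.2, 84.6 and 103 CPM in NT control (log2 fold change -0.22, SE 0.0537, adjusted p = 0.011). PSMB6, with the caspase-like site, was at 53.1, 75 and 72.3 CPM in IKZF1-ko, against 84.1, 63.7 and 81.8 CPM in NT control (-0.20, SE 0.0551, adjusted p = 0.023). PSMB7, with the trypsin-like site, was at 112, 141 and 138 CPM in IKZF1-ko, against 155, 127 and 150.5 CPM in NT control, and did not pass (-0.14, SE 0.0476, adjusted p = 0.054). In each of the 3, IKZF1-ko replicate 1 was the lowest of all libraries and NT control replicates 1 and 3 were the highest.

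None of the 3 tested immunoproteasome subunits passed the test, with a median log2 fold change of -0.01. PSMB8 (ENSG00000204264, chromosome 6, 32840717 to 32844703), which can take the place of PSMB5, was at 168, 182 and 169 CPM in IKZF1-ko, against 163, 187 and 159.7 CPM in NT control (log2 fold change 0.03, SE 0.0574, adjusted p = 0.82). PSMB9, the counterpart of PSMB6, was at 33.4, 23.7 and 25.9 CPM in IKZF1-ko, against 25.9, 35.4 and 22.5 CPM in NT control (-0.01, SE 0.0824, adjusted p = 0.95). PSMB10, the counterpart of PSMB7, was at 25.2, 35.8 and 32.8 CPM in IKZF1-ko, against 33.6, 29.2 and 34.3 CPM in NT control (-0.06, SE 0.0777, adjusted p = 0.70). The groups overlapped in all 3. PSMB8 and PSMB9 were highest in NT control replicate 2, where the standard subunits were low. Whether the change of these genes differs from that of the standard subunits was not tested. PSMB8 shares exon positions with PSMB9 and PSMB8-AS1 on the opposite strand, PSMB9 with PSMB8-AS1 on its own strand, and PSMB10 shares 34.8% of its exon bases with an unnamed gene on its strand, so their values are uncertain to that extent. PSMB11, the subunit of the thymus, had 1 count over all libraries and was not tested.

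**Figure D2:**
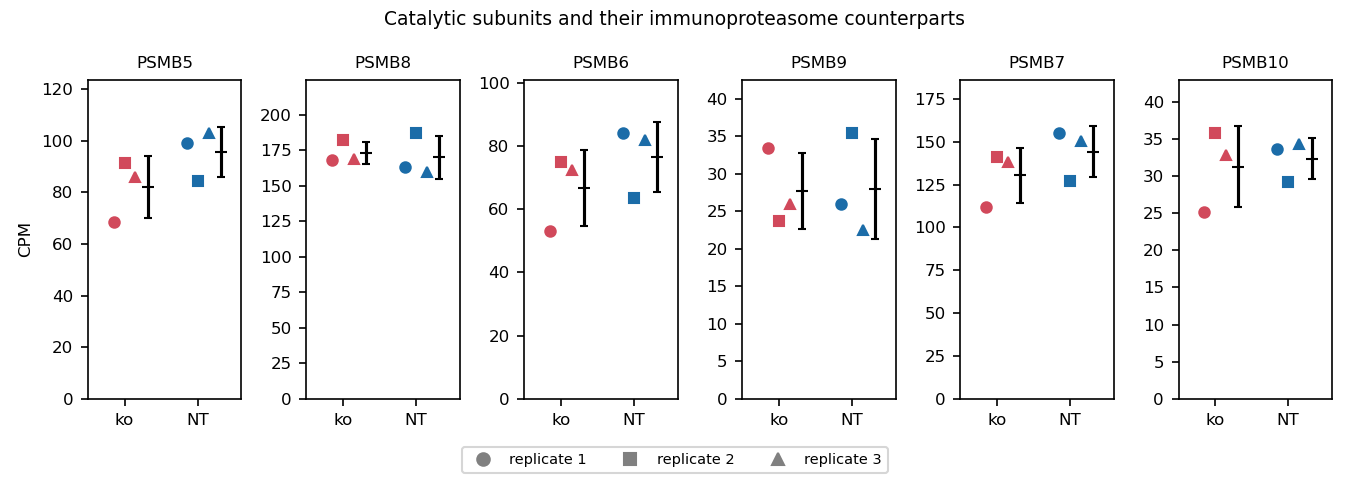
Level in CPM of each active-site subunit (PSMB5, PSMB6, PSMB7) beside its immunoproteasome counterpart (PSMB8, PSMB9, PSMB10) in IKZF1-ko (red, left) and NT control (blue, right); symbols mark the replicates and the bar is the mean ± SD of 3 libraries, with each panel's axis starting at 0. PSMB5 lies at 68.7 to 91.6 CPM in IKZF1-ko and 84.6 to 103 CPM in NT control. PSMB8 lies at 168 to 182 CPM in IKZF1-ko and 159.7 to 187 CPM in NT control. CPM is not corrected for gene length, so the heights of different genes are not to be compared.

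Ratios between genes were taken per kilobase of annotated exon, because CPM is not corrected for gene length. PSMB8 mRNA was at 1.44, 1.17 and 1.15 times the level of PSMB5 in IKZF1-ko, against 0.967, 1.30 and 0.916 times in NT control. This ratio averaged 1.26 ± 0.164 in IKZF1-ko and 1.06 ± 0.210 in NT control (SD, n = 3 each), and the groups overlapped through NT control replicate 2. PSMB9 was at 0.204 ± 0.0800 times the level of PSMB6 in IKZF1-ko and 0.179 ± 0.0725 times in NT control. PSMB10 was at 0.230 ± 0.0141 times the level of PSMB7 in IKZF1-ko and 0.217 ± 0.00714 times in NT control. PSMB8 mRNA was thus about level with PSMB5, whereas PSMB9 and PSMB10 mRNA were well below PSMB6 and PSMB7. With the median length of coding transcripts in place of all annotated exons, PSMB8 was at 1.71 ± 0.223 times the level of PSMB5 in IKZF1-ko and 1.44 ± 0.285 times in NT control. PSMB9 was then at 0.478 ± 0.187 times the level of PSMB6 in IKZF1-ko and 0.418 ± 0.169 times in NT control. Per kilobase of annotated exon the highest levels were those of PSMB3, at 86.5 ± 15.2 CPM per kilobase in IKZF1-ko and 105 ± 15.7 in NT control, and PSMB4, at 87.9 ± 5.29 in IKZF1-ko and 102 ± 8.33 in NT control, and these neighbours did not differ beyond their spread. With coding transcript length the order was PSMB4, PSMA4 and PSMB3, so the ranking depends on the length used.

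Of the 6 ATPase genes of the regulatory particle, 3 fell and 0 rose. PSMC4 (ENSG00000013275, chromosome 19, 39971005 to 39981441) had the largest fall of the proteasome genes that passed, at 43, 66.6 and 71.8 CPM in IKZF1-ko, against 91.7, 58.6 and 83.8 CPM in NT control (log2 fold change -0.37, SE 0.0603, adjusted p = 4.97e-04). PSMC3 was at 61.3, 114 and 106 CPM in IKZF1-ko, against 125, 85.3 and 128 CPM in NT control (-0.28, SE 0.0596, adjusted p = 0.0043). PSMC2 passed narrowly (-0.17, adjusted p = 0.045). With a surrogate variable PSMC4 passed (-0.30, adjusted p = 0.0057), and PSMC3 (-0.20, adjusted p = 0.062) and PSMC2 (-0.14, adjusted p = 0.17) did not. The ATPase genes that did not pass were PSMC5 (-0.12, adjusted p = 0.16), PSMC6 (-0.08, adjusted p = 0.45) and PSMC1 (-0.03, adjusted p = 0.75). PSMC1 shares 75.8% of its exon bases with NRDE2 on the opposite strand, so its value is uncertain. The pseudogene PSMC1P1 had 8 to 15 counts per library, and the other 43 pseudogene rows named after proteasome genes had 17 counts together, few beside the counts of the genes themselves.

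Among the 11 non-ATPase subunits, 6 fell and 0 rose. PSMD2, a scaffold of the base that binds ubiquitin-like domains, was at 172, 329 and 318 CPM in IKZF1-ko, against 393, 194 and 407 CPM in NT control (log2 fold change -0.26, SE 0.0475, adjusted p = 0.0013). PSMD1, the other large scaffold of the base, was at 43.4, 95.5 and 97.4 CPM in IKZF1-ko, against 122, 51.4 and 115 CPM in NT control (-0.28, SE 0.0529, adjusted p = 0.0017). PSMD11, a lid subunit, was at 38.2, 67.3 and 74 CPM in IKZF1-ko, against 95.3, 44.5 and 84.8 CPM in NT control (-0.31, SE 0.0647, adjusted p = 0.0038). In these 3 genes the difference between the library sets was larger than that between the groups. None of the 3 passed with a surrogate variable, where PSMD2 was at -0.15 (adjusted p = 0.069), PSMD1 at -0.15 (adjusted p = 0.15) and PSMD11 at -0.20 (adjusted p = 0.077).

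Of the lid subunits, PSMD3 was at 98.3, 162 and 163 CPM in IKZF1-ko, against 188, 124 and 191 CPM in NT control (-0.26, SE 0.0481, adjusted p = 0.0016). PSMD7, the partner of the deubiquitinase PSMD14, was at 64.1, 109.9 and 115 CPM in IKZF1-ko, against 128, 81 and 139 CPM in NT control (-0.28, SE 0.0528, adjusted p = 0.0021). PSMD13 fell by 0.16 (adjusted p = 0.037), and did not pass with a surrogate variable (-0.11, adjusted p = 0.21), whereas PSMD3 (-0.18, adjusted p = 0.034) and PSMD7 (-0.19, adjusted p = 0.035) did. PSMD14, which removes ubiquitin chains from substrates, did not pass (-0.15, adjusted p = 0.066), nor did PSMD12 (-0.16, adjusted p = 0.059), PSMD6 (-0.17, adjusted p = 0.085), PSMD8 (-0.13, adjusted p = 0.13) or the ubiquitin receptor gene PSMD4 (-0.13, adjusted p = 0.16). All 11 non-ATPase genes had a negative log2 fold change, as did all 7 standard beta and all 6 ATPase genes, whereas 6433 of 13028 tested genes did. For 6 of the 21 proteasome genes that fell, part of the exon sequence is also covered by exons annotated on the other strand. The covered share of exon bases is 30.7% for PSMD7, 10.8% for PSMD1, 9.4% for PSMD11, 6.6% for PSMD13 and 5.8% for PSME3. It is 0.0% after rounding for PSME4. The values of these genes are uncertain to that extent.

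Of the 5 genes of the other caps and the inhibitor, 2 fell and 0 rose, and none of the 5 passed with a surrogate variable. PSME1 was at 117, 106 and 105 CPM in IKZF1-ko, against 112, 113 and 117 CPM in NT control (log2 fold change -0.06, adjusted p = 0.50). PSME2 was at 63.2, 71.8 and 66.1 CPM in IKZF1-ko, against 75.1, 62.7 and 75.8 CPM in NT control (-0.08, adjusted p = 0.40). Both genes of the interferon-inducible cap therefore did not pass the test. PSME3 (ENSG00000131467, chromosome 17, 42824385 to 42843758), which forms a nuclear cap, was at 74.3, 167 and 175 CPM in IKZF1-ko, against 209, 95.5 and 195 CPM in NT control and fell (-0.28, SE 0.0514, adjusted p = 0.0016). PSME4, a large nuclear activator, passed narrowly (-0.18, adjusted p = 0.049). With a surrogate variable PSME3 was at -0.15 (adjusted p = 0.14) and PSME4 at -0.10 (adjusted p = 0.35). PSMF1, whose product was named for inhibiting the core particle in vitro, was at 91.1 to 95.1 CPM in IKZF1-ko and 93.2 to 96 CPM in NT control (-0.02, adjusted p = 0.88), the narrowest relative range of the 46 genes.

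None of the 7 assembly genes passed the test, with a median log2 fold change of 0.00. Their lowest value was that of PSMG1 (-0.15, adjusted p = 0.19), a chaperone of the alpha ring, and the highest that of PSMD5 (0.08, adjusted p = 0.47), a chaperone of the regulatory particle base. PSMG1's partner PSMG2 was at 73.9, 60.2 and 55.4 CPM in IKZF1-ko, against 62.3, 69.2 and 55 CPM in NT control. PSMD10, a base chaperone also known as gankyrin, was at 38.4, 32.9 and 35.7 CPM in IKZF1-ko, against 32.8, 36.3 and 36.2 CPM in NT control. The pair of genes that the symbol rule took without being subunits also did not pass, with PSMC3IP, a factor of meiotic recombination, at -0.01 (adjusted p = 0.96) and PSME3IP1 at -0.07 (adjusted p = 0.45).

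**Figure D3:**
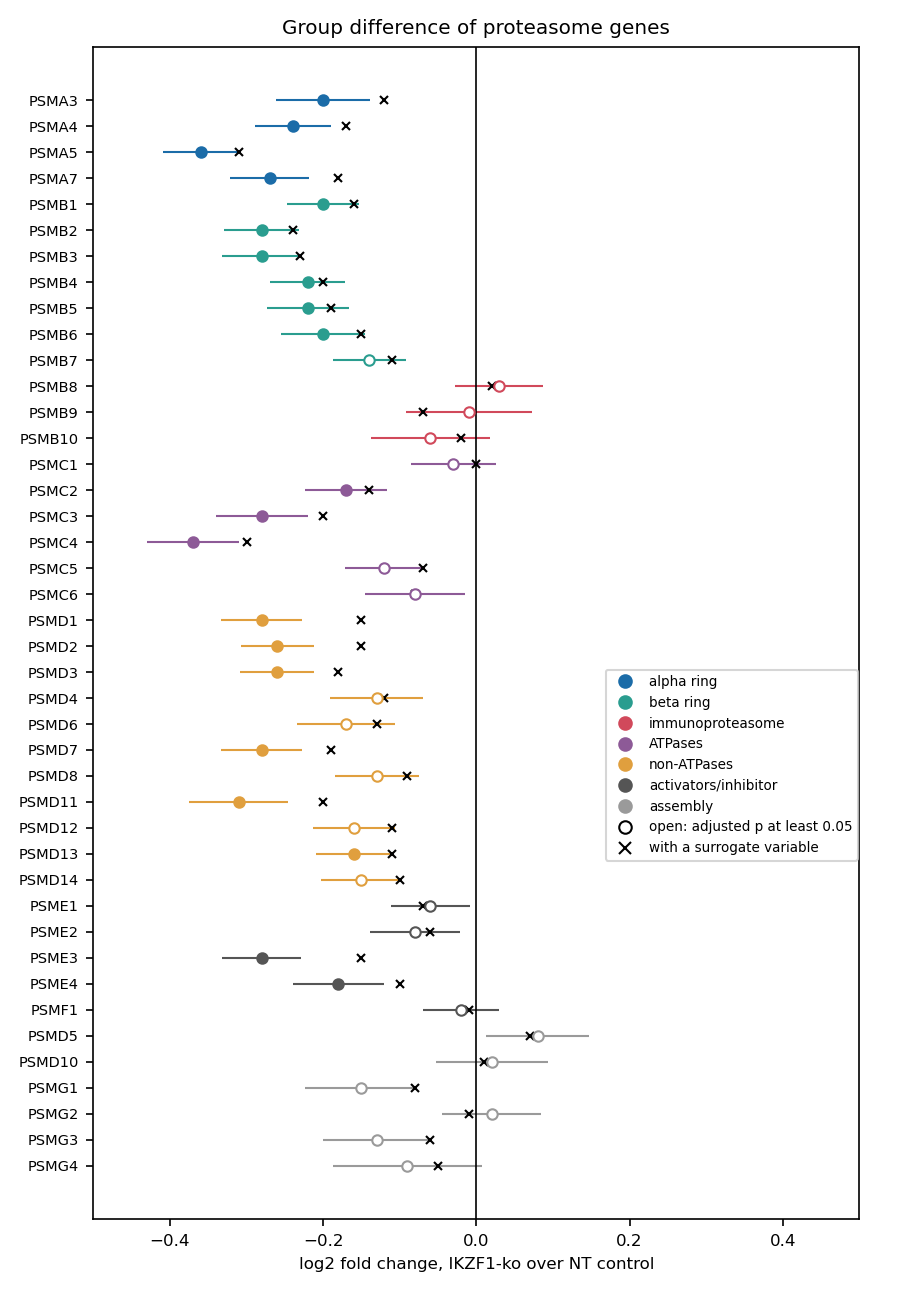
Log2 fold change of IKZF1-ko over NT control for 42 proteasome genes from edgeR with the library-set term, by class (points, with bars of 1 SE; filled where the adjusted p is under 0.05), and in the fit with a surrogate variable (crosses). The standard alpha, beta, ATPase and non-ATPase genes lie below 0, between -0.37 and -0.03, the immunoproteasome genes lie between -0.06 and 0.03, and most crosses are nearer to 0 than their points.

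The group difference was looked at in each set of libraries by itself. In the 4 libraries of the larger set, 21 of the 46 genes fell and 0 rose with edgeR, where 7.10% of the genes tested there fell and 7.64% rose. These included 20 of the 21 genes called in the fit with the term. The same 4 libraries are part of that fit, so much of this overlap is built in. There, IKZF1-ko replicates 2 and 3 were sequenced more deeply than NT control replicates 1 and 3, and the part of depth was not tested. The other set holds 1 library per group and gives no test. In that pair, 40 of the 46 genes were lower in IKZF1-ko replicate 1 than in NT control replicate 2, with a median log2 difference of -0.21, where 6494 of 13028 tested genes were. All 21 called genes were lower in IKZF1-ko in both sets, and 36 of the 46 were, against 31.1% of all tested genes. The 21 were chosen by the combined difference of these same libraries, which favours a fall in both sets. PSMD5 alone was higher in both, 1 of 46, against 31.9% of all tested genes. PSMC4 was lower by similar amounts, at -0.45 in the pair and -0.34 in the 4 libraries, as was PSMA5, at -0.36 and -0.36. PSMB8, by contrast, was at -0.15 in the pair and 0.12 in the 4 libraries.

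**Figure D4:**
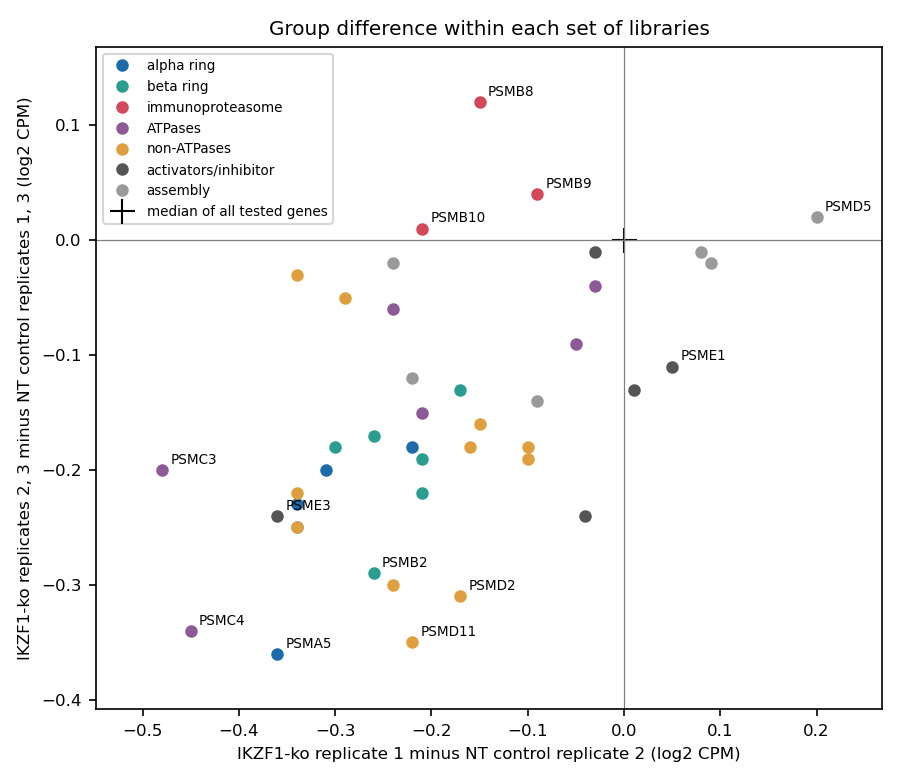
Difference in log2 CPM between IKZF1-ko and NT control within the pair of libraries that stand apart (horizontal axis, 1 library per group) and within the other 4 libraries (vertical axis, means of 2 libraries per group), for 42 proteasome genes coloured by class; the black cross is the median of all tested genes. Most genes lie below 0 on both axes, with PSMA5 at -0.36 on both axes. The immunoproteasome genes PSMB8, PSMB9 and PSMB10 lie below 0 on the horizontal axis, at -0.15, -0.09 and -0.21. On the vertical axis these genes lie above 0, at 0.12, 0.04 and 0.01.

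The difference between the library sets was larger than that between the groups, and it is given here without a test, because the sets were defined from the same counts. In 33 of the 46 genes both IKZF1-ko replicate 1 and NT control replicate 2 lay below all the other 4 libraries, where 31.5% of all tested genes had this. In 3 of the 46 both lay above, where 32.4% of all genes did. Among the 21 genes called for the group, 20 were low in both of these libraries, beside the 33 of all 46. Nearly all called genes thus also differed between the sets, but not every gene that differed between the sets was called. How much of the group difference the library-set term leaves mixed with the sets was not tested. The median difference of the 46 genes from the other libraries of the same group was -0.40 in IKZF1-ko replicate 1 and -0.34 in NT control replicate 2 on the log2 scale.

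The genes with the largest difference were PSME3, at -1.20 in IKZF1-ko replicate 1 and -1.08 in NT control replicate 2, and PSMD1, at -1.15 and -1.20. PSMD2 stood at -0.91 and -1.04, and PSMD11 at -0.88 and -1.01. These 4 genes were thus at about 1 log2 unit less in both libraries. The standard beta genes differed less, between -0.47 and -0.15 in IKZF1-ko replicate 1 and between -0.40 and -0.16 in NT control replicate 2. PSMB9, PSMG2 and PSMD10 were the genes that lay above the other 4 libraries, with PSMB9 at 0.43 and 0.55 and PSMG2 at 0.36 and 0.24.

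**Figure D5:**
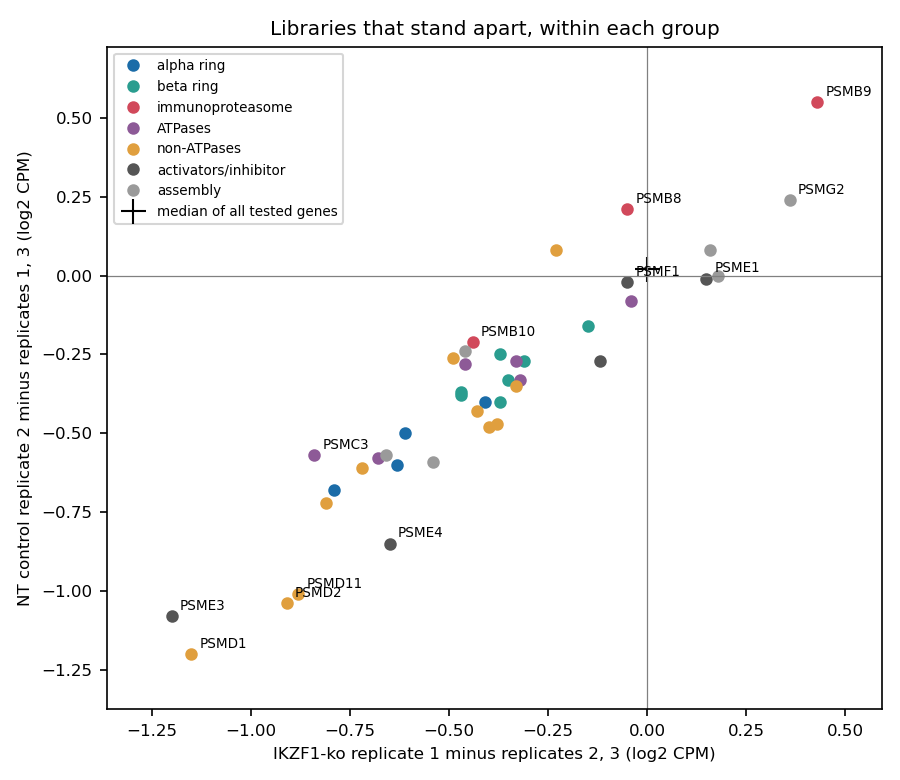
Difference in log2 CPM of IKZF1-ko replicate 1 from the mean of IKZF1-ko replicates 2 and 3 (horizontal axis) and of NT control replicate 2 from the mean of NT control replicates 1 and 3 (vertical axis), for 42 proteasome genes coloured by class; the black cross is the median of all tested genes. PSME3, PSMD1, PSMD2 and PSMD11 lie farthest below 0 on both axes, and PSMB9 and PSMG2 lie above 0 on both.

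Genes that work with the proteasome were read from lists of the pathway. Of 15 further subunits and cofactors, 2 fell and 0 rose with the library-set term, where 6.62% of all tested genes fell and 6.93% rose, a background that applies to each of these lists. They were ADRM1, a ubiquitin receptor of the regulatory particle, at 33.7, 80.4 and 72.2 CPM in IKZF1-ko, against 90.8, 47.6 and 90.2 CPM in NT control (log2 fold change -0.32, adjusted p = 0.0038), and POMP, the maturation factor of the core particle, at 51.4, 75.9 and 73.4 CPM in IKZF1-ko, against 83.7, 62.8 and 85.6 CPM in NT control (-0.21, adjusted p = 0.015). ADRM1 shares exon positions with LAMA5 on the opposite strand. Neither passed with a surrogate variable (-0.19, adjusted p = 0.13 for ADRM1 and -0.16, adjusted p = 0.11 for POMP). Of 15 shuttle and unfolding genes, 2 fell and 0 rose. VCP, the ATPase that extracts ubiquitinated proteins, was at 188, 338 and 334 CPM in IKZF1-ko, against 394, 229.5 and 412 CPM in NT control (-0.27, adjusted p = 6.34e-04). DDI2, the protease that activates the NFE2L1 protein, was at 37.9, 60.6 and 61.9 CPM in IKZF1-ko, against 73.2, 41.2 and 72.9 CPM in NT control (-0.21, adjusted p = 0.023). VCP passed also with a surrogate variable (-0.17, adjusted p = 0.027), but DDI2 did not (-0.13, adjusted p = 0.24), nor with DESeq2 (adjusted p = 0.054). DDI2 shares exon positions with RSC1A1 on its strand.

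Of 10 genes of ubiquitin and its activating and conjugating enzymes, 1 fell and 0 rose, near the 6.62% of all tested genes that fell. The ubiquitin gene UBB was at 399, 463 and 444 CPM in IKZF1-ko, against 555, 524 and 526 CPM in NT control, without overlap (log2 fold change -0.30, adjusted p = 4.21e-04, and -0.29, adjusted p = 0.0011 with a surrogate variable). UBB holds near-identical ubiquitin repeats and shares 28.4% of its exon bases with an unnamed gene on the opposite strand, so its count is uncertain. Of 9 genes of transcription factors tied to proteasome genes, 1 fell and 0 rose, which is also near that background. It was NFYC, a subunit of NF-Y, at 31.2, 50 and 51.5 CPM in IKZF1-ko, against 57.5, 39.4 and 56.2 CPM in NT control (-0.22, adjusted p = 0.035). It did not pass with a surrogate variable (-0.15, adjusted p = 0.22), with DESeq2 (adjusted p = 0.075) or in the 4 libraries (adjusted p = 0.095). NFE2L1 was at 211, 303 and 308 CPM in IKZF1-ko, against 326, 241 and 317 CPM in NT control, and did not pass (-0.11, adjusted p = 0.13).

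The cereblon ligase is of interest here because drugs that bind it send Ikaros to the proteasome. Of its 5 genes, 1 rose and 0 fell, where 6.93% of all tested genes rose. CUL4B, a scaffold of such ligases, was at 89.9, 51.8 and 56.8 CPM in IKZF1-ko, against 49.4, 66.3 and 46.2 CPM in NT control (log2 fold change 0.28, adjusted p = 0.012). It did not pass with a surrogate variable (0.21, adjusted p = 0.087) or in the 4 libraries (0.18, adjusted p = 0.088). CRBN itself was at 28.8, 20.9 and 19.7 CPM in IKZF1-ko, against 21.9, 27.6 and 19.5 CPM in NT control (0.01, adjusted p = 0.97). Of 9 genes of immunoproteasome induction and peptide supply, 1 fell and 0 rose, where 6.62% of all tested genes fell. It was IRF1, an interferon-response factor, at 10.1, 6.93 and 6.67 CPM in IKZF1-ko, against 9.41, 16.8 and 10.3 CPM in NT control (-0.62, adjusted p = 0.0024, and -0.69, adjusted p = 0.0013 with a surrogate variable). IRF8, a myeloid interferon-response factor (0.13, adjusted p = 0.086), and TAPBP, which helps load peptides (-0.13, adjusted p = 0.088), did not pass, though TAPBP did with a surrogate variable (-0.17, adjusted p = 0.040). Genes on the other strand share exon positions with CRBN and IRF1, which makes the values of both uncertain.

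Promoter sequences were examined because 19 of 31 standard subunit genes fell and 0 rose. RefSeq windows on GRCh38.p14, from 250 bases before to 50 after a gene's start, were found for 42 of the 48 genes, in 51 windows. On either strand, the motif TGACNNNGC, the core of the antioxidant response element to which the NFE2L1 protein can bind, was present in 15 of 51 windows and in 13.3% of all 35116 windows. The sequence CCAAT, recognised by NF-Y, was in 20 of 51 windows and 34.6% of all windows. An interferon-response motif, GAAA and GAAA again after any 2 bases, was in 7 of 51 and 3.57% of all windows. These motifs were chosen with the values known, and a match is a description of the letters and not a site. Of 18 genes that fell and have a window, 6 held TGACNNNGC, 11 held CCAAT and 2 held the interferon-response motif. Of all 42 proteasome genes with a window, those 18 included, 15, 20 and 7 held these motifs. The percentages over all windows are per window and not per gene. Stretches of 30 bases are shown for 4 genes that fell, with the TGACNNNGC match in capitals, and for 2 genes linked to the immunoproteasome that did not pass, with the interferon-response match in capitals. They are written 5′ to 3′ on the gene's strand.
PSMA4 (chr15:78540650-78540679, plus strand): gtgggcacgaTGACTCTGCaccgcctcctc
PSMB3 (chr17:38752627-38752656, plus strand): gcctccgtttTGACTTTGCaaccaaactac
PSMD3 (chr17:39980760-39980789, plus strand): tcccctttgtTGACTCGGCcatcggcctgc
PSME4 (chr2:53971008-53971037, minus strand): cccggcggctGCAGCGTCAccagcagagcc
PSMB10 (chr16:67936852-67936881, minus strand): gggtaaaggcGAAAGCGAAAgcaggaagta
PSME2 (chr14:24146619-24146648, minus strand): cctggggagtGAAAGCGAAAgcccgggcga
The PSME4 match reads as the reverse complement of the motif. The match of PSMA4 starts 126 bases before the RefSeq start of its window, that of PSMB3 104, that of PSMD3 37, that of PSME4 34, that of PSMB10 21 and that of PSME2 28. These starts can differ from the GENCODE gene span, inside which the matches of PSMA4, PSMB10 and PSME2 lie. The motif TGACNNNGC was also present in genes that did not pass the test, among them PSMB9, PSME1 and PSME2. Whether the share with any of these motifs differs between the genes that fell and the others was not tested.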

How the data were processed

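Polyadenylated RNA was extracted with an RNeasy kit and sequenced on a NovaSeq instrument from stranded mRNA libraries, per the labels' protocols. The deposited table holds raw read counts per Ensembl gene, 1 column per library, and the authors' counts were used as deposited. Per the submitters' processing notes, Trimmomatic and STAR were used with GRCh38, no version being listed. How reads were counted, with which strand setting and annotation, is not given in the sources used here. Columns were tied to samples by the library names in the labels.

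Of 58233 identifiers, 57895 were found in GENCODE release 29 and 57392 had a symbol. The filterByExpr function kept 13028 genes, holding 99.9% of counts. Total counts were 11300519 to 18214328 per library, which sets the counting precision. The tests were edgeR 4.0.16 quasi-likelihood F tests in R 4.3.3 with TMM scaling, two-sided, Benjamini-Hochberg adjusted over all tested genes, threshold 0.05, for group by itself and for group beside a library-set term (the sign of the first principal component of log2 CPM, prior count 2). An SE is the size of the log2 fold change over the square root of F. No list was tested as a set. The members, lists, library-set term and motifs were chosen with earlier results of these data known. Named with values in every library were IKZF1, PSMB5 to PSMB10, PSME1 to PSME3, the 16 proteasome genes of lowest adjusted p and, from each further list, the genes that passed. The rule allowed up to 4 genes a list, by adjusted p, and of the others IRF8 and TAPBP were named by fold change and NFE2L1 with all values. PSMG2, PSMD10 and CRBN were added after their values were seen. Alternatives used DESeq2 1.42.0, limma 3.58.1 and sva 3.50.0. Both fits were also run on counts simulated with the library sets given as known, which cannot test the choice of the sets. Figures were drawn with matplotlib 3.10.9.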

Additional observations from a re-analysis of the deposited data

How the results depend on the processing

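The count of proteasome genes falling with the library-set term was 21. It was 8 with 1 surrogate variable and 0 on group alone. With each library left out in turn it was 12 to 21, and the lowest, 12, was without IKZF1-ko replicate 3. It was 21 without IKZF1-ko replicate 1 and 21 without NT control replicate 2. Both of these fits compare the groups within the larger set only, so they repeat the fit of its 4 libraries. It was 17 with DESeq2, 21 with limma-voom, 23 with RLE scaling, 18 with upper-quartile scaling, 20 with library size alone, 19 without a filter on low counts and 21 in the 4 libraries of the larger set. With a replicate block beside the library-set term it was 28, and on group alone with a replicate block it was 0. The fit that gave 28 has nearly as many terms as libraries, so little is left to estimate the spread. Deviations of same-numbered libraries from their group means correlated at -0.655, -0.689 and 0.588 for replicates 1, 2 and 3. The library sets alone would give these signs, so the correlations cannot show whether the replicate numbers pair the libraries. The count rising was 0 under each of these settings. On group alone 0 proteasome genes were called under any setting run, DESeq2 and limma-voom included. None of the 21 genes changed direction under any setting run with the library-set term. On group alone 2 of them did, both without IKZF1-ko replicate 1, where PSMD1 was at 0.01 and PSME3 at 0.04. With a surrogate variable 13 of the 21 no longer passed. The median log2 fold change was -0.12 with a surrogate variable and -0.17 to -0.15 under the scaling alternatives. The smallest fall called was 1.12-fold.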
